A study of Homo sapiens with 10 samples.

Results

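Ribo-STAMP in 3 HEK293T libraries was set beside Ribo-STAMP in 2 untreated MDA-MB-231 libraries, 5 of the 10 long-read libraries of the series. A gene was compared where all 5 libraries list at least 1 edited coding position in it, matched by its Ensembl gene number, which held for 2519 of the 10092 genes listed in any of the 5. Both lines carried the doxycycline-inducible fusion of RPS2, which sits in the small subunit of the ribosome, with the cytidine deaminase APOBEC1, and both received 1 ug/mL doxycycline. HEK293T, an embryonic kidney line with the SV40 large T antigen, was induced for 72 h, and its polyadenylated RNA went through the PacBio Iso-seq Express protocol. MDA-MB-231, a line from a breast cancer of the triple-negative type, was induced for 48 h without CoCl2, and its RNA went through the SMRTbell prep kit 3.0. Line, hours of induction and library kit therefore differ together and cannot be told apart in any value below. The genome build of the listed positions differs with them as well. The labels number the replicates without saying that they are separate cultures, so each p-value reflects the spread among these libraries alone, and that spread may be technical.

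Ribosomes that carry the fusion deaminate cytidines of the mRNA they translate, and the resulting C-to-U marks are read in the cDNA as C-to-T changes. The number of marks on an mRNA is used as a readout of its contact with ribosomes, while the reads that cover it follow its abundance and how well the library captured it. APOBEC1 on its own favours a cytidine that follows an A or a U. A long-read library covers whole transcripts, so it also carries a length preference of its preparation.

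Covering reads of a gene are the median coverage of each listed isoform, summed over its isoforms. Editing is the number of edited reads summed over all listed positions per 100 covering reads, and it can pass 100 because a read can be edited at several positions. Each value was turned into a percentile within its own library over the 2519 genes, where 100 is the top, so that depth is not carried between libraries. The HEK293T libraries held 157544 to 203093 reads on listed isoforms and the MDA-MB-231 libraries 1137588 and 1135885. Over the compared genes, median covering reads per gene were 29 to 33 in HEK293T and 103 and 80 in MDA-MB-231, and median editing was 25 to 25.4 and 22.7 edited reads per 100 covering reads. In 3 HEK293T libraries with APOBEC1 alone, the same measure had medians of 3.23 to 3.78 over the 939 to 1145 of these genes that were listed there.

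The line labels were checked with markers. Of 28 MDA-MB-231 markers, 26 were listed in both MDA-MB-231 files and 21 in no HEK293T file, among them CD44, AXL and KRT8. Their summed coverage was 21773 and 23612 reads in MDA-MB-231 against 55 to 117 in HEK293T. Of 24 HEK293T markers, 10 were listed in all 3 HEK293T files and 13 in no MDA-MB-231 file, and LIN28B, IGF2BP1, IGF2BP3, CDH2 and GPC3 were among those in all 3 HEK293T files only. Summed coverage of these 24 was 424 to 641 reads in HEK293T and 2080.5 and 2521.5 in MDA-MB-231, where STMN1 alone held 956.5 and 1336 reads. TUBB3, ENO2 and NES, also on that list, were listed in MDA-MB-231 alone, and BEX3 had 6 reads in 1 HEK293T file against 123 and 178. Of the 3 HEK293T markers listed in all 5 files, 0 ranked higher in HEK293T and 1 in MDA-MB-231 by the coverage test below. This was MARCKSL1, with 11, 23 and 34 reads in HEK293T against 402 and 372.5. With ranks within 4 length groups the counts were 1 and 0. CKB, without a call, had 35, 63 and 150 reads against 232 and 317. Of 14 epithelial and immune markers, 11 were listed in no file, EPCAM and CD68 were listed in both MDA-MB-231 files, and ERBB2 in 2 files of each line.

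Example sites are given from both ends of the comparison, as positions that the MDA-MB-231 libraries list as edited. For genes with large editing differences in each direction, among those with a mean of at least 20 covering reads in each line, and for the most edited genes of both lines, the position with the most edited reads in MDA-MB-231 is shown, on the coding strand with 14 bases to each side and the edited C in capitals. All lie in coding exons on GRCh38, from GENCODE 29 transcripts.
HSPA13: agaaaatactggtaCccattcagcaagta
SEL1L: tctgagcagcaacaCagtgcacaagctat
BRAT1: tgcgctccctggcaCagcaccccagcgcc
WDR12: cctaacgtcacataCtggttgggtgacat
AARS1: attggtggtcgggaCgccgcacatcttgt
SNRNP200: ggtggtactcctgaCaggcgagaccagca
LRPPRC: ccgcctcatcataaCgcaagttaggcggg
UBA1: ccttggtggcctcaCtggcagaacctgac
RPS2: gcggactcaggctcCagctgtggctacaa
EEF1A1: ctttgagtgaagctCttcctggggacaat
ATP5F1B: gggctatcagcctaCcctggccactgaca
The first 5 genes had higher editing percentiles in MDA-MB-231, the next 3 were highly edited in both lines, and the last 3 had higher percentiles in HEK293T.

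These sites lie at chr21:14373869-14373897 in exon 5 of 5 of HSPA13, chr14:81484271-81484299 in exon 19 of 21 of SEL1L and chr7:2544931-2544959 in exon 4 of 14 of BRAT1. WDR12 has its site at chr2:202883691-202883719 in exon 11 of 13 and AARS1 at chr16:70271841-70271869 in exon 5 of 21, all of these on the minus strand. The site of SNRNP200 is at chr2:96284510-96284538 in exon 31 of 45 and that of LRPPRC at chr2:43905704-43905732 in exon 31 of 38, both on the minus strand, and that of UBA1 at chrX:47202362-47202390 in exon 10 of 26 on the plus strand. The sites of RPS2, EEF1A1 and ATP5F1B are at chr16:1962103-1962131 in exon 7 of 7, chr6:73518462-73518490 in exon 6 of 8 and chr12:56642517-56642545 in exon 7 of 10, on the minus strand. Single positions held few edited reads even here. The UBA1 position had 7 of 355 reads edited in replicate 1 and 2 of 181 in replicate 2, and the AARS1 position 4 of 215 and 1 of 118. The RPS2 position was listed in replicate 2 alone, with 7 of 1707 reads. Those of SEL1L and SNRNP200 were listed in replicate 1 alone, with 2 of 37 and 5 of 74 reads. The EEF1A1 position had 2 of 4397 and 5 of 4841 reads edited, and the ATP5F1B position 2 of 1967 and 4 of 2654. Whether marks at such low shares come from APOBEC1 was not tested. No such window is shown for HEK293T, where 2.41 to 2.76% of entries fell in coding sequence of the named gene on GRCh38, against 99.93 and 99.94% in MDA-MB-231.

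Coverage ranks differed widely between the lines. By limma on normal scores of the ranks, with Benjamini-Hochberg adjustment over all genes and a threshold of 0.05, 554 genes ranked higher in HEK293T (22% of those tested) and 514 ranked higher in MDA-MB-231 (20.4%), with 1274 at an unadjusted p under the threshold. The libraries of the lines did not overlap for 34.1% of genes with HEK293T above and for 32.4% with MDA-MB-231 above. The largest differences include SCD, PHF6, HEATR1 and CDC7 on the HEK293T side and POLR2E, FKBP8, LMNA and QSOX1 on the MDA-MB-231 side. Leaving out 1 library moved these counts. Without HEK293T replicate 2 they were 359 and 329, without replicate 3 835 and 783, and without MDA-MB-231 replicate 1 or 2, which leaves a lone library assumed to vary like the others, 184 and 209 or 152 and 151.

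**Figure D1:**
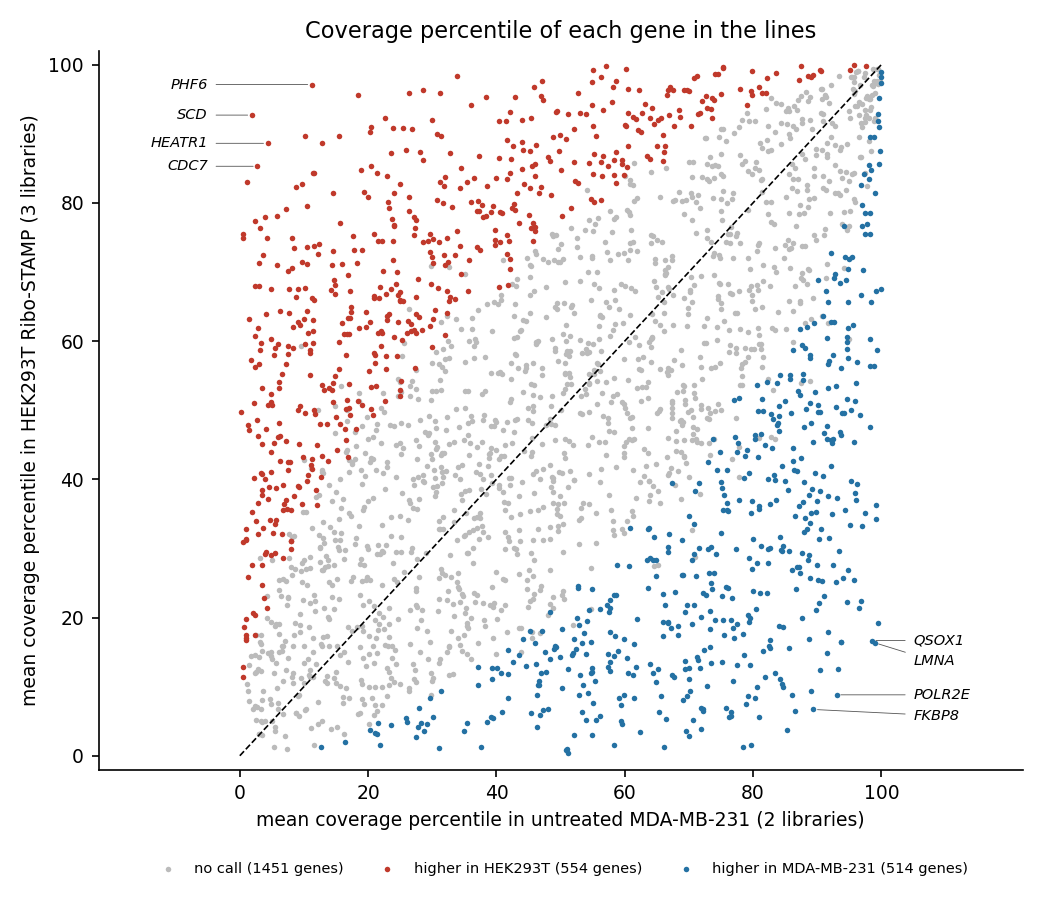
Mean coverage percentile of each of 2519 genes in untreated MDA-MB-231 (x axis, 2 libraries) and in HEK293T Ribo-STAMP (y axis, 3 libraries), both in percentile units, with the dashed line at equality. The 554 genes that ranked higher in HEK293T (red) fill the upper left and the 514 that ranked higher in MDA-MB-231 (blue) the lower right, and the 4 genes with the largest differences in each direction are named.

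SCD, the stearoyl-CoA desaturase that makes monounsaturated fatty acids, had the largest difference. It was covered by 451, 161 and 89 reads in the HEK293T libraries and by 4 reads in each MDA-MB-231 library, at percentiles of 92.7 ± 6.77 (SD, n = 3) and 1.87 ± 1.01 (n = 2), adjusted p = 0.000454 by limma. No HEK293T library came near the MDA-MB-231 libraries. PHF6, a chromatin-associated zinc finger protein of the nucleolus, had 606, 319 and 168 covering reads against 29 and 6, and HEATR1, a factor of ribosomal RNA synthesis, had 250, 115 and 72 against 9 and 5.5. In absolute reads these genes were covered more in HEK293T although each HEK293T library held far fewer reads. CDC7, the kinase that fires replication origins, had 143, 92 and 75 against 9 and 2, and RADX, a protein of replication forks, had 233, 111 and 44 against 2 and 3. NUP205, a scaffold of the nuclear pore, and MTREX, the RNA helicase of the nuclear exosome, were among the 10 largest, with PITPNB, PREPL and CCND2. Within HEK293T, replicate 1 was the highest and replicate 3 the lowest for most of these, as for SCD.

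CCND2 and CCND3, alternative D-type cyclins of the G1 phase, lay at opposite ends. CCND2 was covered by 102, 54 and 54 reads in HEK293T and by 1 and 2 in MDA-MB-231, a difference of 75 percentiles (adjusted p = 0.000454, limma). CCND3 was covered by 4, 8 and 14 reads in HEK293T and by 695 and 837 in MDA-MB-231, a difference of -80.8 percentiles (adjusted p = 0.000484, limma). The libraries of the lines did not overlap for either cyclin. As background, the D cyclins share the partners CDK4 and CDK6.

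LMNA, which encodes the nuclear lamins A and C, was covered by 5, 5 and 23 reads in HEK293T and by 2282 and 2308 in MDA-MB-231, at percentiles of 16.3 ± 17.6 (SD, n = 3) and 98.9 in both. CTSD, the lysosomal protease cathepsin D, had 10, 6 and 21 reads against 3960 and 4062. QSOX1, a secreted sulfhydryl oxidase, had 3, 4 and 27 against 2098 and 1921. Each of these was near the top of MDA-MB-231 and, apart from replicate 3, at percentiles under 20 in HEK293T. POLR2E, a subunit shared by the RNA polymerases, had 6, 4 and 10 against 664 and 816, the largest difference in this direction at -84.2 percentiles (adjusted p = 0.000454, limma). FKBP8, SH3KBP1, RPS15 and BCKDK were also among the 10 largest, and the call of SH3KBP1 ended with isoforms listed in all 5 files, at limma adjusted p = 0.148.

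Among the gene lists, the cytosolic ribosomal proteins had the lowest median coverage difference, -57.3 percentiles over 34 tested of 78 members, against 0.90 over all 2519 genes. Of these 34, 29 ranked higher in MDA-MB-231 and 0 ranked higher in HEK293T by limma (31 and 0 at an unadjusted p under the threshold). RPS15 had 5, 2 and 9 reads in HEK293T and 428 and 517 in MDA-MB-231, and RPL18 had 5, 4 and 11 against 406 and 510. RPL19 and RPL6 followed. Over all genes, 20.4% ranked higher in MDA-MB-231 and 22% in HEK293T. The tested members had a median transcript length of 1071 bases, and in the shortest of 4 length groups 306 of 630 genes ranked higher in MDA-MB-231. Another 9 members were listed in no HEK293T file, and 76 were listed in both MDA-MB-231 files.

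The proteasome followed the same order, with 14 of 17 tested members ranked higher in MDA-MB-231 and 2 in HEK293T and a median of -41.7 percentiles. Counts in this paragraph stand beside 20.4% of all genes higher in MDA-MB-231 and 22% in HEK293T. PSMA2 and PSMB5, subunits of the core particle, had 9, 5 and 5 and 4, 8 and 5 reads in HEK293T against 304 and 341 and 200 and 251 in MDA-MB-231. PSMD1, the large scaffold of the regulatory particle, went the other way, with 625, 516 and 248 reads against 61 and 40 (adjusted p = 0.000454, limma). PSMC2 had 13, 37 and 38 reads in HEK293T against 1 and 7 in MDA-MB-231, and PSMD2 165, 131 and 110.5 against 5319 and 4308. What sets these members apart was not tested. Of 11 iron, thioredoxin and NRF2 genes, 6 ranked higher in MDA-MB-231, including SOD1 and FTH1, the ferritin heavy chain, while TFRC, the transferrin receptor, ranked higher in HEK293T with 331, 192 and 80 reads against 53 and 34.

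Of 19 cytoskeletal genes, 12 ranked higher in MDA-MB-231 and 3 in HEK293T, where 20.4% and 22% of all genes did. CFL1, an actin-severing protein, had 16, 23 and 26 reads in HEK293T and 2362.5 and 2844 in MDA-MB-231, and ZYX, of focal adhesions, 3, 8 and 7 against 288 and 311. MYH10, the non-muscle myosin heavy chain IIB, had 160, 87 and 144 against 22 and 19, so that its lines were in reverse order. All 3 tested annexins, ANXA5, ANXA6 and ANXA7, ranked higher in MDA-MB-231, and 9 of the 16 annexin and S100 genes were listed in no HEK293T file. The call of ANXA7 ended within length groups, at limma adjusted p = 0.225, and without MDA-MB-231 replicate 1 or 2, at 0.0612 or 0.0742. Of 13 glycolytic genes, 6 ranked higher in MDA-MB-231 and 0 in HEK293T by limma (7 and 1 at an unadjusted p under the threshold), with ALDOA at 12, 16 and 33 reads against 1077 and 1412.

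Sterol and lipid genes, amino acid synthesis genes and tRNA synthetases had small numbers of calls, to be read against 22% of all genes higher in HEK293T and 20.4% in MDA-MB-231. SQLE, an enzyme of the sterol pathway, and SCD were among 3 of 10 that ranked higher in HEK293T. SQLE had 140, 91 and 59 reads against 44 and 26. DHCR7, a late enzyme of the same pathway, ranked higher in MDA-MB-231 with 15, 23 and 28 reads against 303 and 322, a call that ended without MDA-MB-231 replicate 1 or 2, at limma adjusted p = 0.075 or 0.104. Of 11 amino acid synthesis and stress response genes, 5 ranked higher in HEK293T and 0 in MDA-MB-231 by limma (5 and 1 at an unadjusted p under the threshold).

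PHGDH, the first enzyme of serine synthesis, had 13, 27 and 154 reads in HEK293T and 4 and 13 in MDA-MB-231, and ASNS, asparagine synthetase, 15, 21 and 123 against 7 and 7. In both, HEK293T replicate 3 stood well above replicates 1 and 2. PSAT1, the next enzyme of serine synthesis, had 123, 158 and 670 reads against 220 and 164. These calls depended on single choices. With percentiles tested as they are, PHGDH and ASNS had adjusted p = 0.102 and 0.0998 by limma, and without MDA-MB-231 replicate 1 none of the 3 passed the threshold, at 0.108 to 0.181. Without MDA-MB-231 replicate 2 those of ASNS and PSAT1 also ended, at 0.0802 and 0.159, and without HEK293T replicate 2 those of PHGDH and PSAT1, at 0.0522 and 0.068. PSAT1 had 0.0509 with log2 values scaled by the median ratio. All 20 aminoacyl-tRNA synthetase genes on the list were compared, and 4 ranked higher in HEK293T and 2 in MDA-MB-231, which is near the share of all genes on the HEK293T side. IARS1 had 964, 566 and 1227 reads in HEK293T and 130 and 112 in MDA-MB-231, and LARS1 235, 151 and 261 against 84 and 57. HARS1, with 8, 21 and 25 against 379 and 521, and FARSA were the members higher in MDA-MB-231. Without MDA-MB-231 replicate 2 both calls ended, at limma adjusted p = 0.0592 and 0.0871, and without replicate 1 that of FARSA, at 0.0644.

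Other lists had calls in both directions, at shares not far from the 22% and 20.4% of all genes. The spliceosome and RNA-binding list had 6 of 23 members higher in HEK293T and 3 in MDA-MB-231, with HNRNPA2B1 at 189, 348 and 213 reads against 28 and 45 and U2AF2 at 5, 6 and 15 against 555 and 617. Translation factors had 4 and 5 of 29, with EIF2S2 and EIF3B on the MDA-MB-231 side. Endoplasmic reticulum chaperones had 4 and 3 of 14. CANX, the membrane-bound lectin chaperone calnexin, had 1039, 531 and 481 reads in HEK293T against 159 and 115, and its soluble relative CALR had 35, 44 and 83 against 2357 and 2827. Cell cycle genes had 5 and 5 of 22, with RFC3 higher in HEK293T and CDC20 and PLK1 among those higher in MDA-MB-231. The calls of RFC3 and PLK1 ended without MDA-MB-231 replicate 1, at limma adjusted p = 0.0707 and 0.06, and without replicate 2, at 0.105 and 0.0877.

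Transcript length moved with the coverage difference. Across 2517 genes with a length, Spearman's rho between the coverage difference and transcript length was 0.517, given as a description since genes share their libraries. Of 4 equal groups by length, the shortest had a median length of 2064 bases, and 22 of its genes ranked higher in HEK293T and 306 in MDA-MB-231. In the longest, with a median of 6122 bases, 225 and 38 did. The mean length weighted by reads was 4436, 3983 and 3549 bases in the HEK293T libraries and 2803 and 2575 in MDA-MB-231, so that HEK293T replicate 3 was nearest to MDA-MB-231. With ranks taken within 4 length groups, 521 and 509 genes were called, of which 401 and 344 were also called over all genes. In those groups the ribosomal proteins had 22 members higher in MDA-MB-231 in place of 29, the proteasome 11 in place of 14 and the cytoskeleton 13 in place of 12. Translation factors had 2 higher in HEK293T and 10 in MDA-MB-231 in place of 4 and 5, endoplasmic reticulum chaperones 2 and 5 in place of 4 and 3, and the spliceosome list 8 and 5 in place of 6 and 3. The groups are coarse. The shortest ran from 517 to 2495 bases, while the tested ribosomal proteins had a median of 1071, so ranks within it can still carry length.

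The libraries kept this order in their likeness. Spearman's rho of coverage across genes ran from 0.0723 to 0.544 over the 6 pairs of a HEK293T and an MDA-MB-231 library, with a mean of 0.323. HEK293T replicate 3 had 0.544 and 0.506, and replicate 1 had 0.154 and 0.0723. Pairs within HEK293T had 0.637 to 0.887, with the lowest for replicates 1 and 3, and the MDA-MB-231 pair had 0.968. Without replicate 3 the mean between the lines was 0.223 and without replicate 1 it was 0.428, and over genes with a mean of at least 20 covering reads it was 0.177. Of all genes, 26.8% had line means within 10 percentiles of each other.

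Editing ranks differed for fewer genes. By the same test, 142 genes had a higher editing percentile in HEK293T (5.64%) and 12 in MDA-MB-231 (0.476%), with 468 at an unadjusted p under the threshold. The libraries did not overlap for 18.4% of genes with HEK293T above and for 19.6% with MDA-MB-231 above. Those higher in HEK293T include RPS2, EEF1A1, GAPDH, ACTB and HSP90AB1, and those higher in MDA-MB-231 include HSPA13, SEL1L and AARS1. Without MDA-MB-231 replicate 1 or 2 the counts were 42 and 1 or 38 and 0, without HEK293T replicate 1 they were 162 and 20, and without HEK293T replicate 2 121 and 7.

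**Figure D2:**
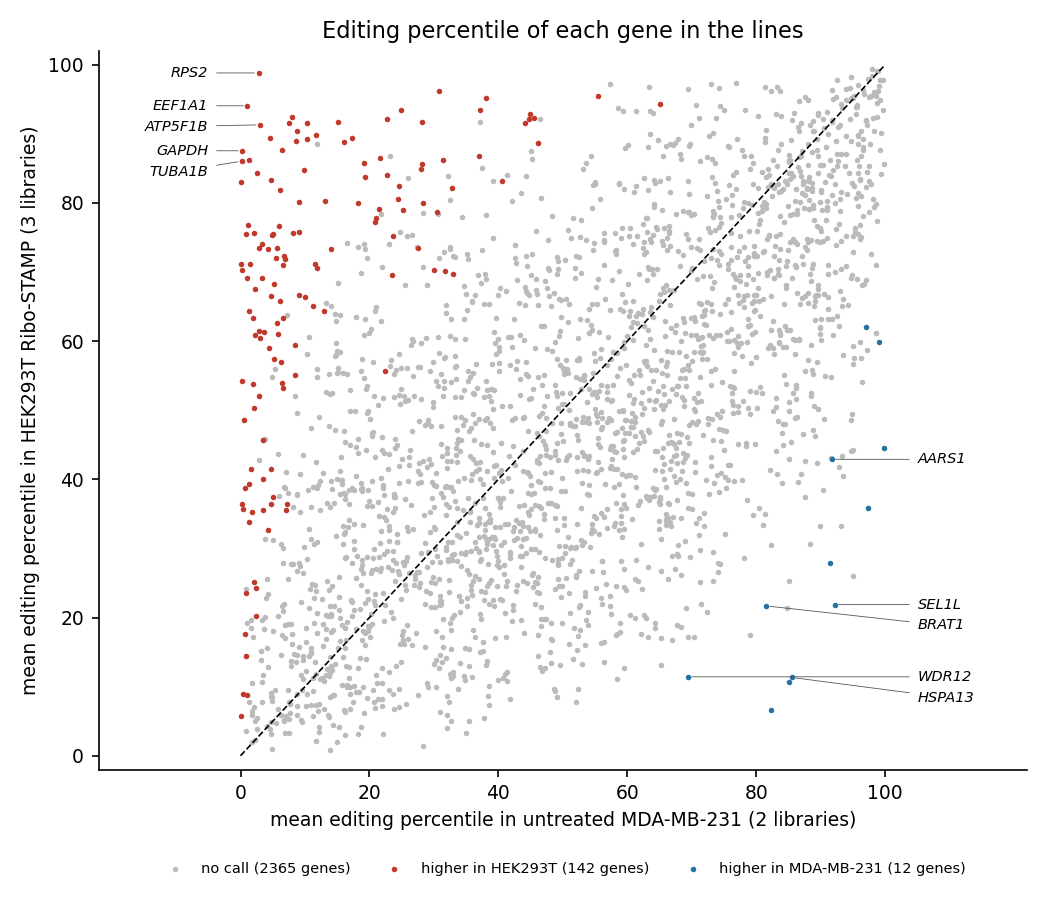
Mean editing percentile (edited reads per covering read, ranked within each library) of each of 2519 genes in untreated MDA-MB-231 (x axis) and HEK293T Ribo-STAMP (y axis), in percentile units, with the dashed line at equality. Most of the 142 genes higher in HEK293T (red) lie at the left edge, at low MDA-MB-231 percentiles, and the 5 named genes at each side are those with the largest differences under the naming rule.

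Coverage in MDA-MB-231 moved with the HEK293T side of this comparison. Of the 142 genes, 136 had a mean of at least 200 covering reads in MDA-MB-231, where 777 of all genes did, and their median there was 1237 reads. With only the 1742 genes under 200 covering reads in MDA-MB-231, a choice made after seeing the data, 2 genes were higher in HEK293T, OGFR and RPL30, and 2 in MDA-MB-231, CCND2 and HSPA13. RPL30 had 3, 2 and 6 covering reads in HEK293T. The 1 edited read needed for listing gives 33.3, 50 and 16.7 per 100 there, above its 8.39 and 6.75 in MDA-MB-231. CCND2 had 1 and 2 covering reads in MDA-MB-231, where 1 edited read gives 100 and 50, above its 19.6 to 25.9 in HEK293T. The listing rule thus fixed the order of both. OGFR had 1, 5 and 12 covering reads in HEK293T, where 1 edited read gives 100, 20 and 8.33, against 16.5 and 12.4 in MDA-MB-231. In MDA-MB-231, genes with 51 to 100 covering reads held 30.5 and 31.6 edited reads per 100 covering reads, genes over 500 and up to 1000 held 14.8 and 12.4, and genes over 1000 held 5.42 and 4.11. In HEK293T, genes with 51 to 100 covering reads held 28.8, 29.9 and 29.1, and genes over 200 and up to 500 held 37.3, 41.1 and 41.3. Over 20 and up to 200 covering reads, all 5 libraries held 27.5 to 32.8 edited reads per 100 in every range, and above 200 the values fell with coverage in MDA-MB-231 and were higher in HEK293T.

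**Figure D3:**
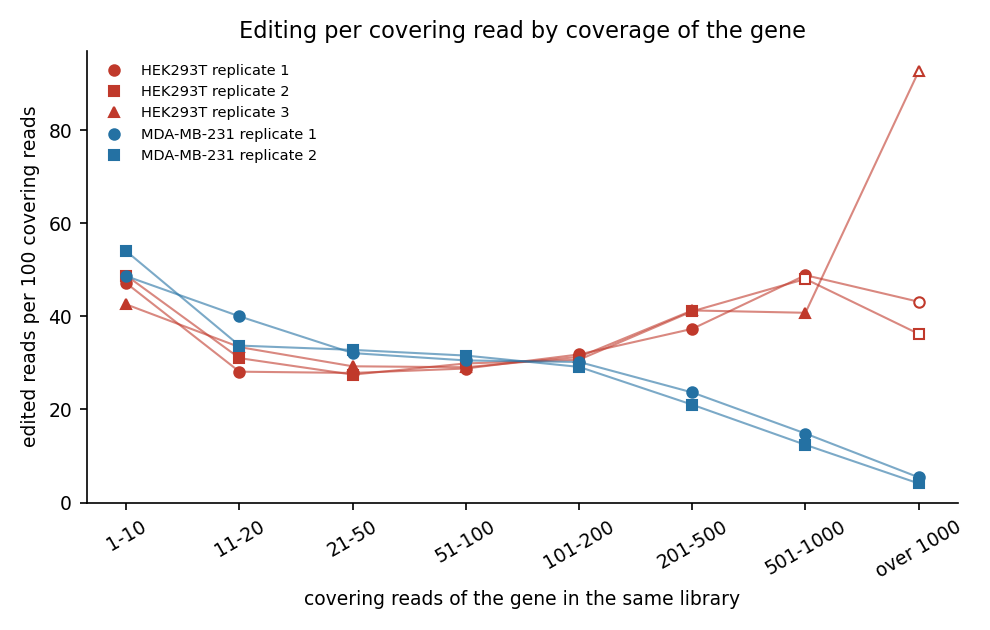
Edited reads per 100 covering reads, summed over the compared genes in each range of covering reads of the same library, for each of the 5 libraries (HEK293T red, MDA-MB-231 blue). Open symbols hold fewer than 20 genes, and the lines part above 200 covering reads, where MDA-MB-231 falls to 5.42 and 4.11.

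The base before the edited C moved with coverage as well. On GRCh38, every listed MDA-MB-231 position in these genes that could be placed was a C, and 80.7 and 79.6% of positions followed an A or a T, the dinucleotides AC and TC read on the coding strand. Of every C in the coding sequence of the same isoforms, 46.4% did. In genes with 51 to 100 covering reads the share was 90.0 and 90.2% in the MDA-MB-231 libraries, in genes over 500 and up to 1000 it was 73.4 and 70.2%, and in genes over 1000 it was 48.8 and 43.1%. In the 142 genes higher in HEK293T it was 46.0 and 45.8%, beside 43.1% of every C in them, and in the 12 genes higher in MDA-MB-231 it was 90.2 and 89.0%, beside 48.1%.

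The listing differed between the lines in other ways. No entry of the untreated MDA-MB-231 libraries held more than 16 edited reads at any coverage, while entries of the HEK293T Ribo-STAMP libraries reached 28 to 109. No position was listed in all 4 MDA-MB-231 libraries of the series, although 39893 were listed in 3. Among the 6 HEK293T libraries, which include APOBEC1 alone, no position was in all and 54 were in 5. How many of the listed marks in the most covered MDA-MB-231 genes come from APOBEC1 was not tested, nor was the part of these features of the lists in the editing differences, so the low MDA-MB-231 values may not measure its editing.

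RPS2 had the largest difference of all genes in editing percentile. It held 97, 95 and 361 edited reads on 60, 75 and 214 covering reads in HEK293T, and 52 and 69 edited reads on 1427 and 1711 covering reads in MDA-MB-231. This is 162, 127 and 169 edited reads per 100 against 3.64 and 4.03, at percentiles of 98.8 ± 0.507 (SD, n = 3) and 2.8 in both (adjusted p = 5.43e-06, limma). The lines did not overlap. RPS2 is also part of the construct in both lines, so reads of the fusion mRNA and of the gene itself cannot be told apart.

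EEF1A1, the elongation factor that brings aminoacyl-tRNA to the ribosome, held 225, 359 and 1395 edited reads on 259, 481 and 1396 covering reads in HEK293T and 113 and 106 on 4422 and 4886 in MDA-MB-231. Its coverage percentile was near the top in every library, but its covering reads were more numerous in MDA-MB-231. Editing in MDA-MB-231 fell with covering reads above 200. The part of this in the EEF1A1 difference of 93 percentiles was not tested. ACTB, cytoplasmic beta-actin, had 184, 358 and 260 edited reads on 364, 525 and 576 covering reads against 56 and 87 on 27968 and 35008. It ranked lowest of all genes in both MDA-MB-231 libraries, at 0.200 and 0.249 edited reads per 100, and at percentiles of 76.8 to 89.7 in HEK293T. Fewer edited reads were listed for ACTB in MDA-MB-231 than in any HEK293T library, on many times more covering reads.

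GAPDH, of glycolysis, had 62.5, 76.3 and 50.5 edited reads per 100 in HEK293T and 0.611 and 1.22 in MDA-MB-231, and TUBA1B, an alpha-tubulin, 63.5, 61.0 and 50.5 against 0.923 and 0.962. ATP5F1B, the catalytic subunit of the mitochondrial ATP synthase, had 71.0, 73.7 and 70.4 against 3.62 and 4.31. PSMD2 and HSP90AB1, a proteasome subunit and a cytosolic chaperone, had 63.3 to 88.5 and 62.0 to 72.4 in HEK293T against 5.83 to 7.16 and 6.40 to 7.37. Among genes with a mean of at least 20 covering reads in each line, the 10 with the largest differences on this side, which also include RPS6 and RPL3, had at least 545 covering reads in each MDA-MB-231 library. The call of RPL3 ended without MDA-MB-231 replicate 2, at limma adjusted p = 0.0521, and without positions listed in every library of a line, at 0.0845. Many of these genes have near-identical paralogs or processed pseudogenes, and how reads were assigned among copies is not given in the sources used here, so their values are uncertain.

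**Figure D4:**
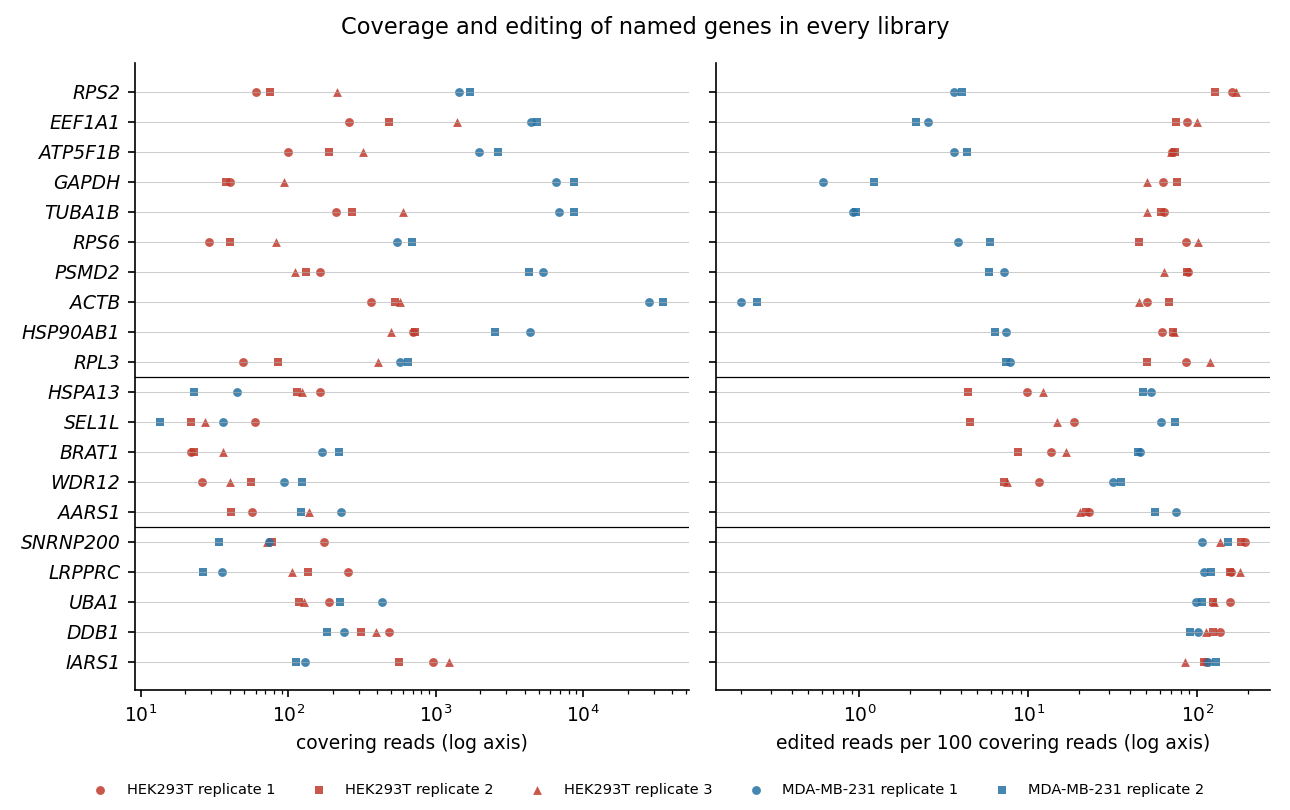
Covering reads (left) and edited reads per 100 covering reads (right), both on log axes, of 20 named genes in every library (HEK293T red, MDA-MB-231 blue, symbols by replicate). The top 10 genes, higher in HEK293T by editing percentile, have more covering reads and lower editing in MDA-MB-231, the middle 5 are higher in MDA-MB-231, and the bottom 5 lie close together in editing.

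By list, calls on the HEK293T side of editing included ribosomal proteins, chaperones, the cytoskeleton and glycolysis, beside 5.64% of all genes and 136 of the 777 genes with at least 200 covering reads in MDA-MB-231. Of 34 ribosomal proteins, 16 had a higher editing percentile in HEK293T and 0 in MDA-MB-231 by limma (30 and 0 at an unadjusted p under the threshold), with a median difference of 57.0 percentiles against -2.43 over all genes. The list of cytosolic chaperones, which also holds the mitochondrial HSPD1, HSPA9 and TRAP1, had 11 of 20. Its member HSPA8 had 36.9, 49.6 and 33.3 edited reads per 100 against 2.87 and 2.91. Cytoskeletal genes had 8 of 19, and glycolysis 7 of 13, with PKM at 43.2, 44.0 and 31.7 against 0.503 and 0.686 and ENO1 at 39.0, 38.4 and 37.3 against 1.04 and 0.975. Translation factors had 7 of 29, endoplasmic reticulum chaperones 6 of 14 and the spliceosome list 6 of 23. Of those called, all of the chaperones, cytoskeletal genes, glycolytic genes and translation factors, and 15 of the 16 ribosomal proteins, had at least 200 covering reads in MDA-MB-231.

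With editing ranks taken within 4 groups of the library's own coverage, also chosen after seeing the data, 58 genes were higher in HEK293T and 6 in MDA-MB-231. The ribosomal proteins then had 8 members on the HEK293T side, the list of cytosolic chaperones 6, cytoskeletal genes 5, glycolysis 5 and translation factors 4. All 58 were among the 142, and 2 of the 6 were among the 12. The coarse top group still spans a wide range of coverage.

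**Figure D5:**
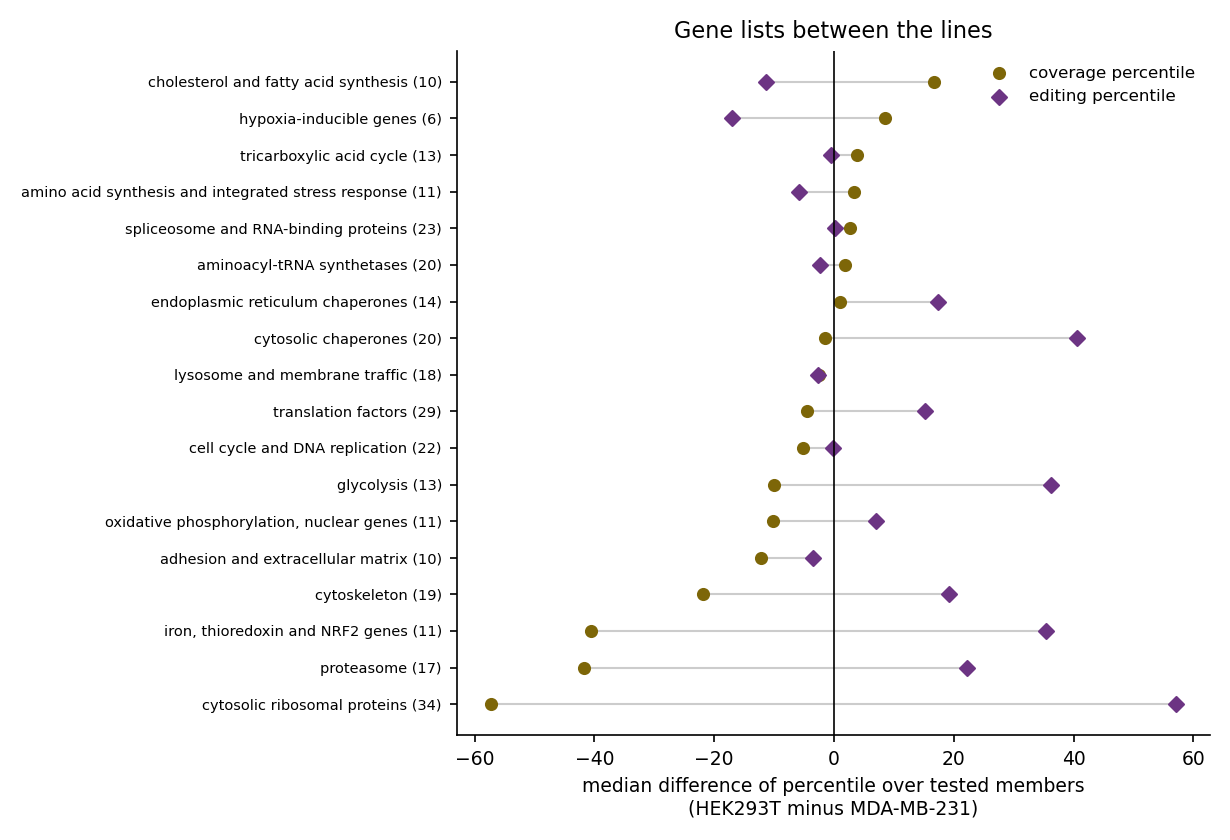
Median difference in percentile (HEK293T minus MDA-MB-231) over the tested members of each gene list with at least 5 tested, for coverage (brown circles) and editing (purple diamonds), with the number tested in brackets. Ribosomal proteins lie farthest from 0 in both measures, at -57.3 and 57.0, while the spliceosome list and the tRNA synthetases lie near 0 in both.

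Between the measures, 86 of the 142 genes with higher editing percentiles in HEK293T had higher coverage percentiles in MDA-MB-231, 3 had them in HEK293T and 53 in neither. LMNA was one of the 86, with 80.0, 60.0 and 52.2 edited reads per 100 against 5.78 and 6.11 (adjusted p = 0.000158, limma), on 4, 3 and 12 edited reads in HEK293T. Covering reads are the denominator of editing, so the measures are not independent.

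On the MDA-MB-231 side, 5 of the 12 genes had a mean of at least 20 covering reads in each line. HSPA13, a microsomal member of the HSP70 family, had 9.82, 4.39 and 12.2 edited reads per 100 in HEK293T and 53.3 and 47.8 in MDA-MB-231, on 163, 114 and 123 and on 45 and 23 covering reads (adjusted p = 0.00957, limma). Its percentiles were 2.26 to 18.4 against 87.2 and 83.8, with no overlap. SEL1L, the scaffold of an endoplasmic reticulum ubiquitin ligase for misfolded proteins, had 18.6, 4.55 and 14.8 against 61.1 and 74.1, on 11, 1 and 4 edited reads in HEK293T and 22 and 10 in MDA-MB-231. AARS1, the alanyl-tRNA synthetase, had 22.8, 22.0 and 20.3 against 74.6 and 56.6, on 13, 9 and 28 and on 170 and 69 edited reads (adjusted p = 0.0236, limma). It was the one tRNA synthetase of 20 with an editing call. Without MDA-MB-231 replicate 1 or 2 the call of HSPA13 ended, at adjusted p = 0.183 or 0.145 by limma, and it stayed under the other alternatives.

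BRAT1, a partner of BRCA1 and ATM, had 13.6, 8.70 and 16.7 edited reads per 100 in HEK293T and 45.6 and 44.6 in MDA-MB-231, and WDR12, a ribosome assembly factor, 11.5, 7.14 and 7.50 against 31.9 and 35.5. Coverage of both was higher in the MDA-MB-231 libraries in absolute reads, so a small number of reads was behind the HEK293T values, 2 to 6 edited reads for each. The calls of SEL1L, AARS1, BRAT1 and WDR12 ended under several alternatives, among them the fit without the variance trend, at limma adjusted p of 0.0655, 0.0635, 0.0635 and 0.0566, and within coverage groups, at 0.0729 to 0.193, as well as without either MDA-MB-231 library, at 0.228 to 0.417, and without HEK293T replicate 2, at 0.0569 to 0.0751. Without HEK293T replicate 3 those of SEL1L and WDR12 ended, at 0.0701 and 0.0559. The other 7 genes were DDX31, RNGTT, GK, SPPL2A, CCND2, PHGDH and PREPL, and 6 of them had under 20 mean covering reads in MDA-MB-231. CCND2 had 2 and 8 edited reads on 1 and 2 covering reads there. With positions under 50% edited alone its direction turned, to a higher editing percentile in HEK293T. A position with 1 or 2 covering reads cannot pass that filter, since 1 edited read makes it 100 or 50% edited. The turn therefore says nothing about editing. A gene is listed only with at least 1 edited read, so a gene with few covering reads cannot take a low value. Of all 12 genes, 8 ranked higher in HEK293T by coverage.

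Several genes were highly edited in both lines. SNRNP200, a helicase of the spliceosome, had 191, 181 and 136 edited reads per 100 in HEK293T and 107 and 153 in MDA-MB-231, at mean percentiles of 99.0 ± 0.346 (SD, n = 3) and 98.9 ± 0.702 (n = 2). LRPPRC, a mitochondrial mRNA-binding protein, had 159, 156 and 179 against 110 and 121. UBA1, the main ubiquitin-activating enzyme, had 157, 124 and 125 against 98.6 and 106, DDB1, an adaptor of CUL4 ubiquitin ligases, 136, 125 and 113 against 101 and 90.2, and IARS1 113, 110 and 84.4 against 115 and 129. Their editing percentiles were at least 94.3 in every library, although the coverage percentile of LRPPRC, for instance, was 92.2 ± 4.04 in HEK293T and 22.7 ± 1.01 in MDA-MB-231. These genes were chosen for their high editing, so their percentiles are a description. The values are summed over all listed positions and not scaled to coding length, and a longer coding sequence can hold more positions.

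Editing ranks of the lines were related to a similar degree in every pair of libraries. Spearman's rho across genes ran from 0.413 to 0.446 over the 6 pairs of libraries, with a mean of 0.426, against 0.515 to 0.598 within HEK293T and 0.799 for the MDA-MB-231 pair. With only the genes under 200 covering reads in MDA-MB-231 the mean was 0.503. No HEK293T replicate stood apart, and 36.2% of genes had line means within 10 percentiles. Per kilobase of coding sequence the mean fell to 0.265, which is lower by over 1.5 times, and 179 and 37 genes were then called.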

How the data were processed

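The authors deposited 1 text file per library that pairs, for each edited coding position of an annotated isoform, the edited reads and the covering reads as whole-number counts; the files carry no header, so this reading comes from the values. Per the submitters' processing notes, hg19 and hg38 were the genome builds. The MDA-MB-231 positions lay on GRCh38 (hg38), and most HEK293T positions did not. Which aligner, edit caller and filters were used is not given in the sources here. Groups came from the labels. A position is listed only with at least 1 edited read, so genes without one have no value, and the depth of a whole library is unknown. Genes listed in all 5 libraries were matched by Ensembl gene number, and symbols and lengths came from GENCODE 29 and the gene tables given. Ranks within a library were turned into normal scores and tested HEK293T against MDA-MB-231 with limma 3.58.1 (R 4.3.3), two-sided, with a variance trend on log2 mean covering reads and Benjamini-Hochberg adjustment over all genes. The script was tested on simulated data.

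Genes were named by a rule. These are the 10 largest percentile differences per measure and direction among adjusted p under 0.05 without overlap (for editing, with a mean of at least 20 covering reads in each line), the 5 most edited in both lines, the line markers, up to 4 called members per list, and RPS2. Other genes were named after their values were seen: OGFR and RPL30, the remaining genes higher in MDA-MB-231 by editing, genes listed in 1 line alone, and those singled out within a list beyond these. Some genes that the rule names are not reported here. Members, lists and rule were chosen with earlier results of these data known. Same-numbered replicates of different lines were not treated as pairs. The alternatives changed the scale tested, the variance trend, the genes, isoforms and positions used, the grouping of ranks, the block and the libraries.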

Additional observations from a re-analysis of the deposited data

Results flagged for a closer look

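Edited reads on mitochondrially encoded genes lie outside the comparison, since no such gene was listed in all 5 libraries. MDA-MB-231 replicate 1 held 303 edited reads there, at 276 positions, and replicate 2 held 405, at 361 positions. HEK293T replicates 1, 2 and 3 held 0, 4 and 7, where a count of 0 allows up to 3 reads, for counting error only. These values stand out because they are above the HEK293T libraries in genes whose mRNA is translated by mitochondrial ribosomes, which do not contain RPS2. Coverage of MT-CYB, a subunit of respiratory complex III, was 2755 and 3612 reads in MDA-MB-231, with 87 and 117 edited reads, and it was listed in no HEK293T file. Over all genes, the MDA-MB-231 libraries listed 138525 and 126527 entries and the HEK293T libraries 40073 to 50069. Compared genes over 1000 covering reads in MDA-MB-231 held 5.42 and 4.11 edited reads per 100. Their listed positions followed an A or a T in 48.8 and 43.1%, beside 46.4% of every C in the compared genes. How many of the mitochondrial marks come from APOBEC1 was not tested. Line, induction time, kit and genome build cannot be told apart here either.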

How the results depend on the processing

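The coverage counts of 554 and 514 stayed within 1.5 times under the other scales, filters and isoform choices and within length groups. With the replicate block they were 854 and 802; leaving out 1 library gave 152 to 835 and 151 to 783. The block leaves HEK293T replicate 3 without a partner, so it is close to the fit without that library, and the numbers do not pair cultures of different lines. The editing counts of 142 and 12 were 159 and 5 with the replicate block, 59 and 7 without the variance trend, 58 and 6 within coverage groups and 2 and 2 with genes under 200 covering reads in MDA-MB-231. The genes higher in MDA-MB-231 numbered 24 with the centred log2 ratio, 21 with listed positions per covering read, 37 per kilobase of coding sequence and 22 within length groups. Leaving out 1 library gave 38 to 162 and 0 to 20. The mean editing likeness of 0.426 was 0.440 with positions per covering read, 0.265 per kilobase, 0.478 with positions covered by at least 20 reads, 0.387 with positions under 50% edited, 0.449 within coverage groups and 0.503 with genes under 200 covering reads. Of the 90 coverage and 52 editing results of named genes, 28 and 24 lost their calls without MDA-MB-231 replicate 1 and 34 and 27 without replicate 2. Only the editing call of CCND2 turned its direction, with positions under 50% edited, a filter that no position with 1 or 2 covering reads can pass. Beyond the smaller number of genes or libraries in some of these, the cause was not tested.

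The coverage groups, the cap of 200 reads and the centred log2 ratio were chosen after seeing the data. The last replaced a planned logit, which has no value where edited reads pass covering reads and was not run. Depth limits the HEK293T values most, where the median gene had 29 to 33 covering reads.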

Other observations

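Genes listed in every library of one line and in no library of the other numbered 206 for HEK293T and 2236 for MDA-MB-231, beside far fewer reads in HEK293T. The most covered in HEK293T was SLC16A1, the lactate transporter MCT1, with 1061, 715 and 480 covering reads and 142, 88 and 61 edited reads. The other proton-linked lactate transporter of this pair, SLC16A3 (MCT4), was listed in MDA-MB-231 alone, with 2506 and 2412 covering reads and 114 and 141 edited reads. DDX3X, an RNA helicase of translation initiation, had 726, 369 and 153 covering reads in HEK293T, and HEY1, a transcriptional repressor of the Notch pathway, 142, 173 and 467. In MDA-MB-231 alone, PLAU, the urokinase protease, had 1878 and 1575.5 covering reads, and IGFBP4, which binds insulin-like growth factors, 3380 and 3294. TMSB4X, an actin-sequestering peptide, had 2970 and 4293.5 covering reads with only 4 and 3 edited reads. A gene missing from a list had no listed edit, which does not show that its mRNA was absent, and a change of gene number between annotations would look the same.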
